A study of Mus musculus with 13 samples.

Results

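The subject here is the transcriptional response of control mouse B cells to stimulation through the B cell receptor (BCR), as read by RNA sequencing of bulk cell samples. The members are the 7 control libraries of a series of 13, chosen by their titles: 3 stimulated libraries (numbers 1 to 3) were compared with 4 unstimulated libraries (numbers 1 to 4), over all gene symbols that passed a filter on low counts. The cells were primary splenic B cells, taken by removing other cells with CD43 beads. All 13 libraries, controls included, come from animals that carry hCD20TamCre, a tamoxifen-activated Cre recombinase driven in B cells, and the control genotype is Regnase-1+/+ (wild type for the gene Zc3h12a). The unstimulated cells are labelled naive and untreated, and the stimulated cells received anti-IgM F(ab')2, antibody fragments that bind and crosslink surface IgM, for 4 h. The other 6 libraries hold Regnase-1 f/f hCD20TamCre cells, called deficient below, 3 unstimulated and 3 stimulated in the same way, and serve here as a comparison. The labels give no age, no tamoxifen schedule and no culture time for the untreated cells, and they do not say whether libraries with different numbers come from different animals, so the p-values measure the spread between these libraries, which may be technical.

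The BCR is a membrane immunoglobulin held in a complex with CD79A and CD79B, whose cytoplasmic tails recruit the kinases LYN and SYK when antigen or an anti-IgM antibody crosslinks the receptor. SYK and BTK then act through the adaptor BLNK and the phospholipase PLCG2 to release calcium, which activates the phosphatase calcineurin and NFAT factors, and through protein kinase C and RAS to activate NF-kB and ERK. In resting splenic B cells these pathways are known to switch on immediate early genes within minutes and then a growth programme of ribosome production, metabolism and entry into the cell cycle.

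The deposited counts summed to between 27007868 and 28656506 reads per unstimulated control library and between 28309960 and 33032469 per stimulated one, so that 3 reads correspond to 0.0908 to 0.111 CPM (read counts scaled to a common library size). Levels are given as CPM scaled with edgeR's TMM factors and are always listed in the order of the library numbers. The B cell markers fixed for this check were abundant in every control library, with a summed level of 6269 to 7048 CPM unstimulated and 3317 to 3466 CPM stimulated, and 4 of the 10 rose and 6 fell. The labelled cell type thus showed its defining markers in both states. Markers of other blood cells were detected. The 10 T cell markers summed to 32.3 to 84.8 CPM unstimulated and 62.7 to 95.6 CPM stimulated, the 12 myeloid markers to 189.5 to 507.5 and 108.1 to 215.9 CPM, and the 9 neutrophil markers to 34.3 to 402.4 and 26.5 to 160.8 CPM. Within each numbered pair the myeloid and neutrophil sums were lower in the stimulated library (0.422-fold and 0.446-fold over the groups) and the T cell sum was higher. The rise of the T cell sum was that of Lck, the only T cell marker called, and the median log2 fold change of that list was -0.82. Of the myeloid markers 2 were called and of the neutrophil markers 1, and with the library number as a block 7 more were called in each list and the 1 neutrophil call was lost. The summed levels of 8 NK cell markers (10.5 to 50.5 CPM over both states) and 8 dendritic cell markers (45.3 to 85.6 CPM) were of similar or smaller size. The 7 platelet markers, 6 of them tested, summed to 7.36 to 9.33 CPM unstimulated and 5.08 to 6.60 CPM stimulated. The 9 erythroid markers, 5 of them tested, summed to 796.5 to 943.4 CPM unstimulated and 646 to 693 CPM stimulated. For both lists the sums were lower after stimulation without overlap, though no erythroid marker and only 1 platelet marker was called. The 7 plasma cell and B-1 markers summed to 305.9 to 457.6 CPM. The sum of the 8 stromal and endothelial markers, 6 of them tested, went from 205.5 to 224.6 CPM unstimulated to 33.2 to 46.6 CPM stimulated. Nearly all of that stromal and endothelial sum was Pecam1, which leukocytes express too, and the other markers tested in the list were not called. Of all marker genes matched, only 3 erythroid ones had no read in any control library. Unstimulated libraries 3 and 4 and stimulated library 3 held more myeloid, neutrophil and NK cell RNA than the other libraries of their state. In bulk samples, fewer cells of a type and less RNA per cell cannot be told apart.

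Zc3h12a, which encodes the RNase Regnase-1 and is the gene targeted in the deficient animals, stood at 124, 131, 121 and 124 CPM in the unstimulated control libraries and at 157, 156 and 146 CPM in the stimulated ones. It was 1.23-fold higher after stimulation (log2 fold change 0.29 ± 0.07 (SE), adjusted p = 0.00246), and the groups did not overlap. The deficient libraries held 89.2, 99.6 and 111 CPM unstimulated and 92.6, 102 and 112 CPM stimulated, so that every one was below every control library. Counts are per gene symbol, without a split by exon, and the source of the Zc3h12a reads left in the deficient libraries was not tested.

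Most genes that could be measured differed between cells stimulated for 4 h and untreated cells. No culture time is given for the untreated cells, and the part of time in culture in these differences was not tested. A gene is called here where edgeR's quasi-likelihood test gave a Benjamini-Hochberg adjusted p below 0.05. By that rule 8191 of 13574 genes tested were called (60.3%), 3873 higher (28.5%) and 4318 lower (31.8%), and these shares are the background against which the gene groups below are read. Changes of more than 2-fold were found in 1369 genes that rose (10.1%) and 1681 that fell (12.4%), of more than 8-fold in 60 and 49, and of more than 16-fold in 7 and 12. Of the genes called, 8147 (99.5%) moved the same way in all 3 numbered pairs, and 7919 had no overlap between the groups, as had 8615 (63.5%) of all genes tested. The calls were made from the same libraries, so neither count among called genes is separate support for them. Genes that rose by more than 2-fold took 8.32% to 9.32% of all reads before stimulation and 23.1% to 24.0% after it, while those that fell by more than 2-fold went from 14.4% to 15.2% down to 4.27% to 4.78%. CPM are shares of each library, and total RNA per cell was not measured. The median gene lay at a log2 fold change of -0.13 with TMM scaling and at -0.28 with scaling to library totals, where 37.3% rather than 47.3% of the calls were higher.

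**Figure D1:**
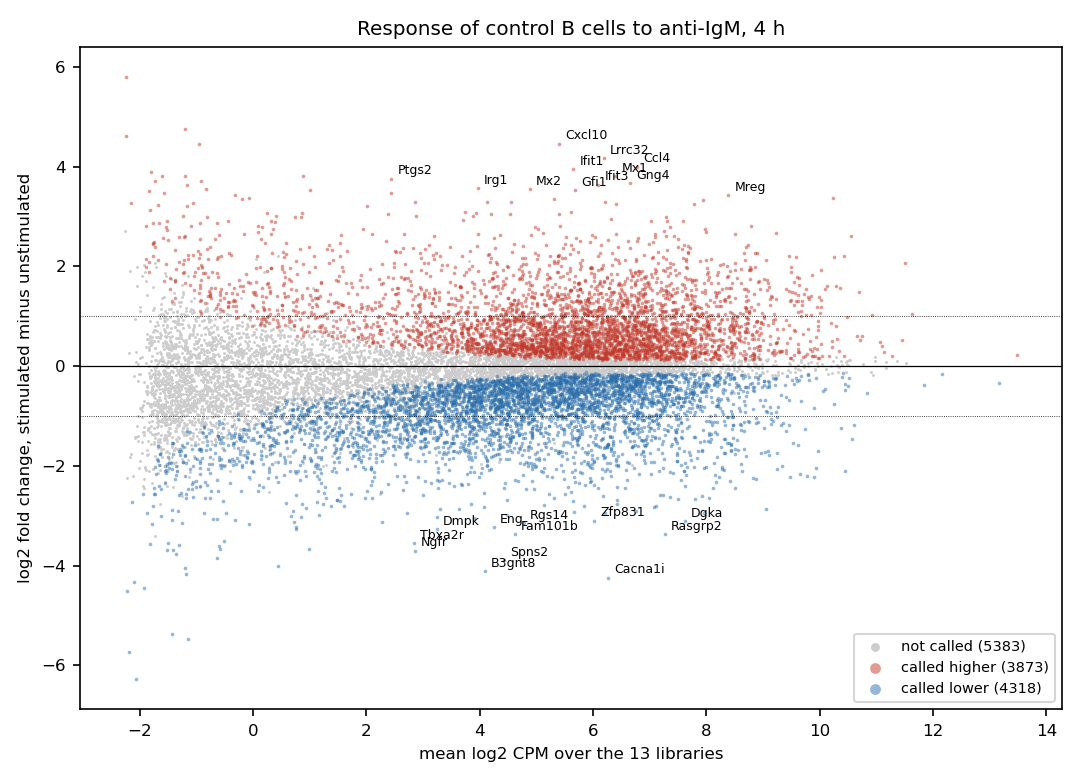
Log2 fold change (stimulated minus unstimulated control cells) against mean log2 CPM for the 13574 genes tested. Red points are the 3873 genes called higher, blue points the 4318 called lower, grey points were not called, dotted lines mark 2-fold, and the 12 largest rises and 12 largest falls with a mean of at least 10 CPM in the higher group are named.

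The largest rises with a mean of at least 10 CPM in the higher group were those of a chemokine, a carrier of latent TGF-beta and interferon-stimulated genes. Cxcl10, a ligand of the chemokine receptor CXCR3, went from 2.43, 3.26, 5.17 and 5.98 CPM to 67.1, 65.2 and 148 CPM, 22.1-fold higher (log2 fold change 4.46 ± 0.48 (SE), adjusted p = 1.84e-05). Its lowest stimulated library was far above its highest unstimulated one, and stimulated library 3 stood above libraries 1 and 2. Lrrc32, which encodes GARP, the surface protein that holds latent TGF-beta, went from 6.30, 7.52, 11.3 and 10.7 CPM to 153, 172 and 159.8 CPM (log2 fold change 4.17 ± 0.27 (SE), adjusted p = 1.76e-07). Gng4, a G protein gamma subunit, went from 14.4, 20.2, 18.8 and 18.1 CPM to 218, 227 and 238 CPM and Mreg, melanoregulin, from 61.97, 82.7, 72.7 and 69.8 CPM to 729, 827 and 762 CPM. For all 3 genes the stimulated libraries were close to one another and apart from the unstimulated ones. Gfi1, a transcriptional repressor of blood cell development, rose 11.5-fold (3.52 ± 0.15 in log2), and Ptgs2, the inducible cyclooxygenase, rose 13.6-fold from a level of 0.589 to 1.37 CPM. Irg1, the enzyme that makes itaconate, rose from 0.848, 2.18, 3.62 and 3.53 CPM to 15.7, 20.1 and 55.6 CPM, with the highest value in stimulated library 3, which also had the most myeloid RNA among the stimulated libraries. The part of that RNA in the Irg1 result was not tested. By difference in CPM the largest rises were those of Ncl, Irf4, Hsp90ab1, Myc, Swap70 and Plek. Swap70, a guanine nucleotide exchange factor of B cells, went from 473, 595, 555 and 545 CPM to 2470, 2575 and 2447 CPM, and Plek, pleckstrin, from 473, 544, 510.1 and 496 CPM to 2347, 2348 and 2262 CPM.

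The largest falls were those of genes for ion channels, lipid signalling and small G protein control. Cacna1i, a T-type calcium channel subunit, went from 164, 149.8, 145 and 126 CPM to 6.99, 6.36 and 9.91 CPM, 18.9-fold lower (log2 fold change -4.24 ± 0.16 (SE), adjusted p = 1.29e-10). Rasgrp2, an activator of the small G protein RAP1, went from 298, 274, 269 and 246 CPM to 26.4, 21.2 and 31.7 CPM, 10.3-fold lower (log2 fold change -3.36 ± 0.14 (SE), adjusted p = 2.39e-10). Dgka, a kinase that removes the second messenger diacylglycerol, went from 371, 348, 316 and 325 CPM to 36.2, 35.8 and 46.8 CPM (log2 fold change -3.10 ± 0.13 (SE), adjusted p = 1.23e-10). None of these 3 genes had a stimulated library near its unstimulated range. Spns2, a transporter of sphingosine 1-phosphate, fell 14.8-fold, Ngfr, the low-affinity nerve growth factor receptor, 12.97-fold, Tbxa2r, the thromboxane receptor, 11.7-fold, Eng, endoglin, 9.41-fold, and Rgs14, a regulator of G protein signalling, 8.81-fold. B3gnt8, a glycosyltransferase gene that fell 17.3-fold, overlaps Bckdha in the annotation, so its reads could be split by the counting. Fam101b, Dmpk and Zfp831 complete the 12 largest falls, at -3.36, -3.27 and -3.10 on the log2 scale. By difference in CPM the largest falls were those of Cd74, Cd79a, Myh9, Serinc3, Ets1 and Cd79b. Myh9, the heavy chain of non-muscle myosin, went from 2350, 2183, 2182 and 2104 CPM to 808, 776 and 804 CPM, and Serinc3, a multipass membrane protein, from 2231, 2118, 2124 and 2155 CPM to 943, 906 and 1007 CPM.

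**Figure D2:**
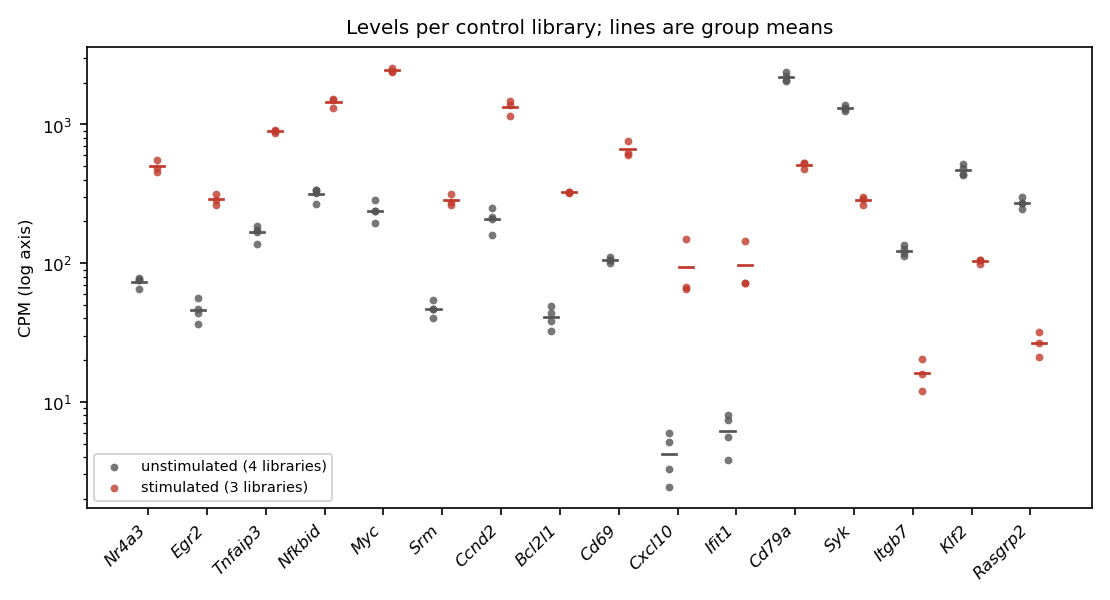
CPM on a log axis for 16 genes of the response in the 4 unstimulated (grey) and 3 stimulated (red) control libraries, with lines at the group means. In each of the 16 genes the groups are apart, and Cxcl10 and Ifit1 show 1 stimulated library, number 3, above the other 2.

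The receptor complex itself and its proximal signalling genes were mostly lower after stimulation. Of 30 genes of this group, 20 fell (66.7% against 31.8% of all genes tested), 7 rose and 3 were not called, with a median log2 fold change of -0.88. Their summed level went from 15540, 15500, 14360 and 13990 CPM to 9416, 9367 and 9348 CPM. Cd79a (chr7:24897381-24902197 in mm10), one of the signalling chains of the receptor, went from 2403, 2224, 2071 and 2079 CPM to 531, 478 and 529 CPM, 4.28-fold lower (log2 fold change -2.10 ± 0.08 (SE), adjusted p = 1.14e-11). Cd79b, the other chain, went from 1597, 1581, 1409 and 1397 CPM to 329, 305 and 329.8 CPM, 4.65-fold lower (log2 fold change -2.22 ± 0.08 (SE), adjusted p = 5.82e-12). Syk, the kinase that docks on both, went from 1390, 1308, 1300 and 1260 CPM to 291, 264 and 299.6 CPM, 4.61-fold lower (log2 fold change -2.21 ± 0.07 (SE), adjusted p = 2.85e-12). In all 3 genes every stimulated library held less than 1 in 2 of the level of any unstimulated library. The kinases Btk (-1.43 ± 0.08) and Lyn (-1.17 ± 0.07) and the phospholipase Plcg2 (-0.96 ± 0.06) fell too, on the log2 scale with SE. So did the inhibitory receptors Cd22 (-1.38 ± 0.09) and Fcgr2b (-1.70 ± 0.10). The 7 members that rose include Cr2, a complement receptor (1.89 ± 0.16), Pik3ap1, the adaptor BCAP that brings PI3 kinase to the receptor (1.74 ± 0.07), Cd72, an inhibitory coreceptor (1.70 ± 0.07), the kinases Fyn (1.31 ± 0.09) and Blk (0.77 ± 0.09), the phosphatase Ptpn22 and the adaptor Blnk (0.29 ± 0.07). Malt1, Prkcb and Cd81 were not called, and with the library number as a block Malt1 (adjusted p = 0.0473) and Prkcb (adjusted p = 0.00115) were.

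Immediate early genes were divided at 4 h. Of 24 genes, 14 rose (58.3% against 28.5% of all genes tested), 3 fell and 7 were not called, and the median log2 fold change was 1.10 against -0.13 over all genes. Nr4a3, an orphan nuclear receptor that antigen receptors induce, went from 65.6, 78.5, 75.6 and 75.1 CPM to 558, 482 and 455 CPM, 6.76-fold higher (log2 fold change 2.76 ± 0.16 (SE), adjusted p = 2.70e-08). Egr2, a zinc finger factor downstream of ERK and NFAT, went from 36.7, 56.5, 46.99 and 43.9 CPM to 287, 314 and 263 CPM, 6.26-fold higher (log2 fold change 2.65 ± 0.22 (SE), adjusted p = 1.42e-06). No stimulated library came near the unstimulated range for either gene. Nr4a2 (2.21 ± 0.15), Nr4a1 (1.93 ± 0.12), Egr1 (1.87 ± 0.22), Egr3 (1.81 ± 0.17), the small MAF protein Maff (2.41 ± 0.17) and Atf3 (1.66 ± 0.12) rose as well. The AP-1 family split by member. Fosl1 (2.11 ± 0.31), Fosl2 (1.76 ± 0.19) and Fosb (0.99 ± 0.18) rose, while Fos (23.3, 20.8, 23.00 and 24.2 CPM against 27.9, 24.7 and 24.2 CPM), Jun (42.02, 53.3, 56.03 and 44.9 against 44.2, 51.5 and 59.6 CPM) and Junb (543, 510.3, 553 and 488 against 553, 499 and 527 CPM) were not called and Jund fell, from 554, 556, 504 and 479 CPM to 179.5, 184 and 178 CPM (log2 fold change -1.53 ± 0.07 (SE), adjusted p = 4.50e-11). For Jun and Junb the library ranges of the 2 states overlapped, and for Fos they touched.

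Negative feedback on ERK signalling moved in both directions. Of 13 ERK phosphatase and Sprouty genes, 8 rose, 3 fell and 2 were not called, with a median of 0.42. The inhibitors Spry1 (1.82 ± 0.29) and Spred1 (1.70 ± 0.12) and the nuclear phosphatase Dusp4 (1.46 ± 0.21) rose, whereas Dusp6 (-1.21 ± 0.16), the cytoplasmic ERK phosphatase, Dusp7 (-0.74 ± 0.10) and Spred2 (-0.70 ± 0.18) fell. Calcium and NFAT genes were more often lower: of 20, 12 fell (60% against 31.8%), 7 rose (4 with library totals as the scale) and 1 was not called, with a median of -0.28. Orai1, the pore of the store-operated calcium channel, rose from 55.7, 66.7, 56.5 and 60.9 CPM to 161, 175 and 154 CPM (log2 fold change 1.45 ± 0.07 (SE), adjusted p = 9.41e-11), while its sensor Stim1 fell from 113, 109, 107 and 101 CPM to 36.7, 31.9 and 36.7 CPM (log2 fold change -1.62 ± 0.10 (SE), adjusted p = 1.55e-09). Channel and sensor thus moved in opposite directions with no overlap between states. Nfatc1 rose (1.32 ± 0.09) and Nfatc2 fell (-1.43 ± 0.10), and the inositol trisphosphate receptor Itpr3 fell 4.66-fold and the calcineurin subunit Ppp3ca 2.38-fold. Rcan1, a calcineurin inhibitor that NFAT induces, rose 1.35-fold.

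NF-kB genes rose more often than they fell. All 20 genes tested were called, 13 higher (65% against 28.5%) and 7 lower (35% against 31.8%). With DESeq2's size factors or test, with limma and without stimulated library 2, 18 were called, 13 higher and 5 lower. Their summed level went from 4209, 4317, 4291 and 4139 CPM to 9050, 9069 and 8834 CPM, 2.12-fold higher, with every stimulated library above every unstimulated one. The 4 members that rose most, Tnfaip3, Nfkbid, Nfkbie and Nfkbiz, encode feedback regulators and proteins of the IkB family. Promoter sequences of Tnfaip3 and Nfkbie are shown because both carry the NF-kB consensus close to the start site. They are from RefSeq (GRCm38.p6, the mm10 assembly), end at the base before the annotated start and are printed 5′ to 3′ on the gene's strand, with matches to the consensus on either strand in capitals. The Tnfaip3 window is chr10:19015411-19015660 on the minus strand, at 1 of 2 annotated starts, with matches that begin 125 and 12 bases before the start, and the Nfkbie window is chr17:45555450-45555699 on the plus strand, with 1 match that begins 106 bases before it.
Tnfaip3: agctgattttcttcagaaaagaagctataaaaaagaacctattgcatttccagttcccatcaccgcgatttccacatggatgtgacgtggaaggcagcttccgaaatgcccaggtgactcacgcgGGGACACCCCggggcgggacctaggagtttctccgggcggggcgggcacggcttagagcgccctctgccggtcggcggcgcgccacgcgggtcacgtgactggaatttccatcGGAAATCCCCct
Nfkbie: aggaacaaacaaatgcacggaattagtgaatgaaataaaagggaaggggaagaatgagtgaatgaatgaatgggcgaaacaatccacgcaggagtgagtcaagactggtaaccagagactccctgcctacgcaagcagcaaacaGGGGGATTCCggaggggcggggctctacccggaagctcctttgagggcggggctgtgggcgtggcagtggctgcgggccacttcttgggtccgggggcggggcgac
Of the 17 group members with a promoter window (250 bases before to 50 after the start), 9 held the consensus (52.9%), against 8.18% of 27025 promoters of the same length in the table and 10.3% of the 10662 genes tested that have a window. A match is a string of letters in this window and does not show binding. Tnfaip3, which encodes the deubiquitinating enzyme A20 that ends NF-kB signalling, went from 138, 167, 174 and 187 CPM to 899, 918 and 862 CPM, 5.36-fold higher (log2 fold change 2.42 ± 0.10 (SE), adjusted p = 4.47e-11). Nfkbie, which encodes the inhibitor IkB-epsilon, went from 134, 148, 157 and 142 CPM to 516, 574 and 517 CPM, 3.69-fold higher (log2 fold change 1.88 ± 0.08 (SE), adjusted p = 1.14e-11). Nfkbid, a nuclear IkB protein that B cells need for antibody responses, went from 269, 336, 319 and 339 CPM to 1507, 1515 and 1321 CPM, 4.58-fold higher (log2 fold change 2.20 ± 0.13 (SE), adjusted p = 1.28e-08). In each of the 3 genes the groups were well apart. Among the subunits, Nfkb1 (1.62 ± 0.08), Rel (1.36 ± 0.09) and Nfkb2 (0.53 ± 0.05) rose, Relb rose 1.18-fold, a call lost with library totals as the scale, and Rela was 1.12-fold lower, a call lost with DESeq2's size factors or test, with limma (adjusted p = 0.149) and without stimulated library 2 (adjusted p = 0.0653). Bcl3, a nuclear IkB protein that pairs with p50 and p52, fell from 187, 172, 178 and 165 CPM to 62.6, 57.00 and 68.8 CPM (log2 fold change -1.48 ± 0.08 (SE), adjusted p = 1.79e-10). Cyld (-0.74 ± 0.08), a deubiquitinase, Map3k14 (-0.70 ± 0.09), the kinase NIK of the alternative pathway, and Tnip1 (-0.60 ± 0.05), a partner of A20, fell as well.

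**Figure D3:**
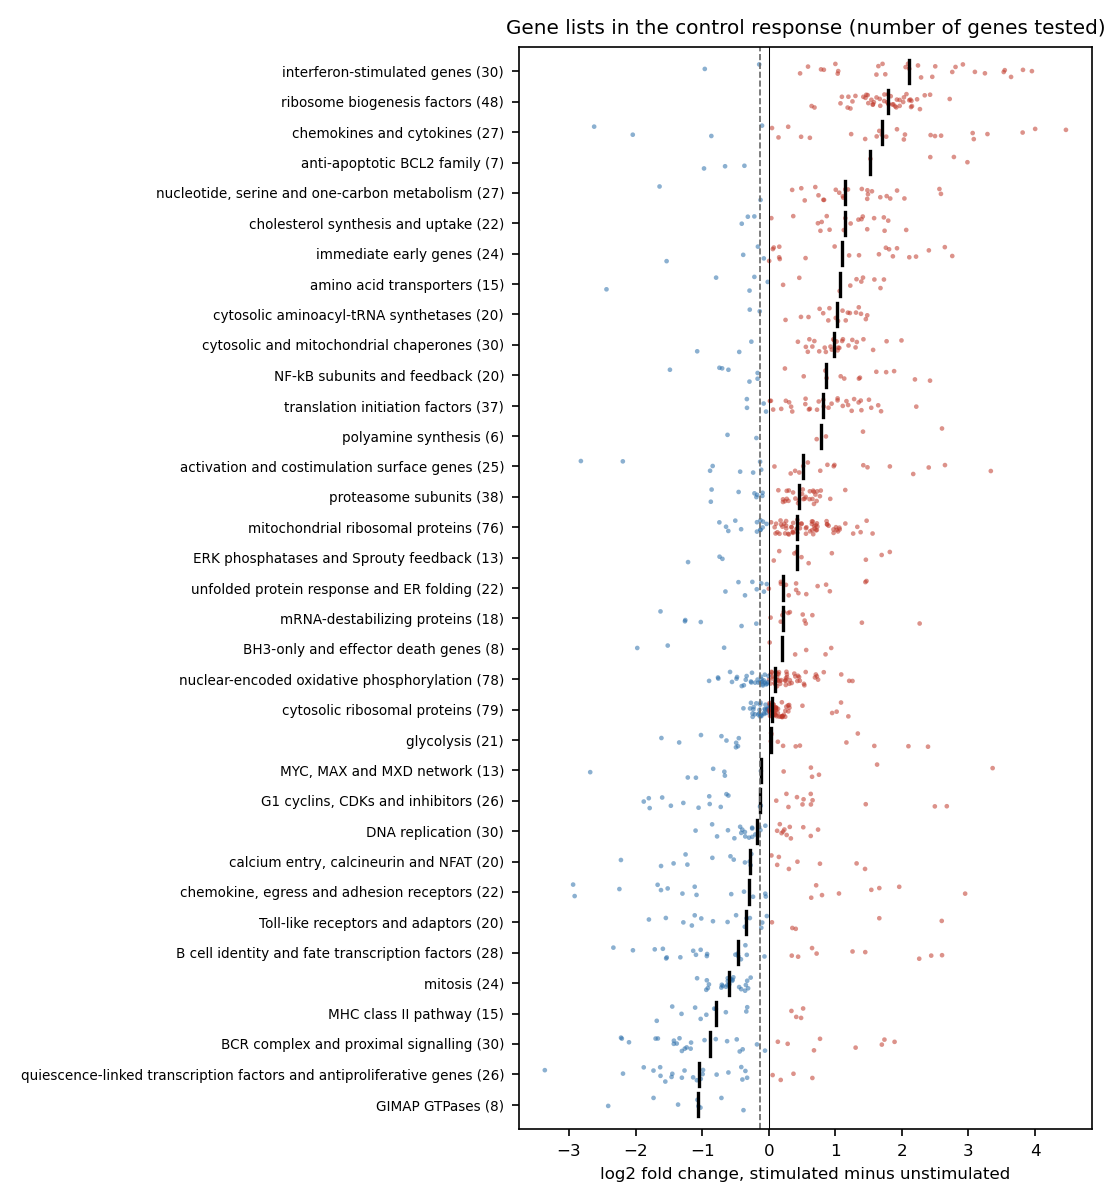
Log2 fold change (stimulated minus unstimulated control cells) of each gene tested in 35 gene lists, with list medians as black bars and the median of all 13574 genes (-0.13) as a dashed line. Ribosome biogenesis factors all lie to the right of 0, and GIMAP GTPases all lie to the left.

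Among genes of cell growth, Myc rose strongly, while its network moved in both directions. Myc (chr15:61985391-61990374 in mm10), the transcription factor that drives growth in activated lymphocytes, went from 195, 284, 238 and 236 CPM to 2370, 2555 and 2439 CPM, 10.3-fold higher (log2 fold change 3.36 ± 0.14 (SE), adjusted p = 3.32e-10). Every stimulated library held more Myc than every unstimulated one by a wide margin. Of 13 genes of the MYC, MAX and MXD network, 6 rose (46.2% against 28.5% of all genes tested), 4 fell (30.8% against 31.8%) and 3 were not called. Their median log2 fold change was -0.12, against -0.13 over all genes, and with library totals as the scale 4 rose and 5 fell. Besides Myc, Tfap4 (1.63 ± 0.18), a MYC target that sustains its programme, and the repressors Mga (0.76 ± 0.08) and Mnt (0.65 ± 0.07) rose, and Mxd4, an antagonist of MYC, fell 6.41-fold from 41.5, 35.5, 33.3 and 35.6 CPM to 5.69, 5.26 and 6.12 CPM (log2 fold change -2.68 ± 0.13 (SE), adjusted p = 4.68e-11). Max, the common partner, was 1.17-fold higher, a call lost with library totals as the scale. Of 6 polyamine genes tested out of 9 in the list, 4 rose and 2 fell. Srm, spermidine synthase, went from 40.2, 53.9, 46.4 and 46.8 CPM to 276, 313 and 264 CPM, 6.08-fold higher (log2 fold change 2.60 ± 0.13 (SE), adjusted p = 1.37e-09), and Odc1, the rate-limiting ornithine decarboxylase, rose 2.67-fold (1.42 ± 0.07 in log2).

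All 48 ribosome biogenesis factors tested rose (100% against 28.5% of all genes tested), 46 of them by more than 2-fold, with a median log2 fold change of 1.78. Their summed level went from 6400, 7387, 6411 and 6345 CPM to 22110, 23120 and 21160 CPM, 3.34-fold higher. Ncl, nucleolin, a main protein of the nucleolus, went from 1137, 1370, 1128 and 1180 CPM to 5134, 5190 and 4831 CPM (log2 fold change 2.07 ± 0.08 (SE), adjusted p = 5.82e-12). Polr1b, a core subunit of RNA polymerase I, which transcribes ribosomal RNA, went from 61.5, 71.02, 65.1 and 63.01 CPM to 346, 375 and 328 CPM (log2 fold change 2.42 ± 0.11 (SE), adjusted p = 2.32e-10). Rrp1b (2.72 ± 0.13), Gnl3 (2.34 ± 0.11), Nolc1 (2.27 ± 0.09), Npm1 (1.56 ± 0.07) and Fbl (1.54 ± 0.08), all nucleolar proteins, rose, and the smallest rises were those of Tcof1 (0.69 ± 0.06) and the RNA polymerase I factor Ubtf (0.64 ± 0.07). The promoter of Nop2, a ribosomal RNA methyltransferase gene (1.83 ± 0.07), is shown from RefSeq in the same way (chr6:125131633-125131882 on the plus strand), with the E-box CACGTG in capitals, the letters that MYC and MAX bind, 60 bases before the start.
Nop2: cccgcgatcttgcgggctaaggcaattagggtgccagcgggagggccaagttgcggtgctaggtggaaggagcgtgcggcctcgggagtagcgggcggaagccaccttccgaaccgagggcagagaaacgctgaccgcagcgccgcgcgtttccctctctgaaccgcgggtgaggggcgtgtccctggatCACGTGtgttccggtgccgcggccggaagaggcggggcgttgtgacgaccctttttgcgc
The E-box CACGTG lay in 10 of 42 promoters of this group (23.8%), in 7.24% of the 27025 promoters in the table and in 10.1% of the 10662 genes tested that have a window, and again the letters alone do not show binding. The ribosomal proteins did not follow the biogenesis factors. Of 79 cytosolic ribosomal protein genes tested, 20 rose, 8 fell and 51 were not called, with a median of 0.05, and the counts depended on the setting. With library totals as the scale 11 rose and 38 fell, with upper-quartile factors 18 and 18, and with the library number as a block 21 and 18. The other way, 32 rose and 4 fell with DESeq2's size factors, 37 and 6 with DESeq2's test, 33 and 4 with limma and 35 and 7 in the control libraries alone. Without unstimulated library 4, 18 rose and 14 fell. The largest rises were Rpl34 (1.20 ± 0.15) and Rpl30 (1.09 ± 0.16), whose reads can be shared with processed copies. Mitochondrial ribosomal proteins rose more often: 51 of 76 (67.1% against 28.5%), with 6 lower and a median of 0.43. With library totals as the scale 44 rose and 11 fell, and with DESeq2's size factors 59 rose and 5 fell.

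Translation, charging and folding genes rose with the biogenesis factors. Of 37 initiation factors tested, 30 rose (81.1%), 2 fell and 5 were not called, with a median of 0.82. The cap-binding protein Eif4e (1.69 ± 0.06) and the helicase Eif4a1 (1.54 ± 0.07) rose, as did Eif2b3, a subunit of the exchange factor for eIF2 (2.22 ± 0.10). Of 20 cytosolic aminoacyl-tRNA synthetases, 18 rose (90%), 1 fell and 1 was not called. Eprs, which charges tRNAs with glutamate and proline, rose 2.79-fold, and Qars, the glutamine enzyme, fell slightly (-0.28 ± 0.06). Of 30 chaperones, 27 rose (90%) and 3 fell, with a median of 0.98. Hspd1, the mitochondrial chaperonin, went from 167, 208, 180.1 and 176 CPM to 712, 777 and 696 CPM (log2 fold change 1.99 ± 0.08 (SE), adjusted p = 6.96e-12), and Hsp90ab1 went from 2068, 2336, 2061 and 2104 CPM to 4418, 4625 and 4223 CPM (log2 fold change 1.05 ± 0.06 (SE), adjusted p = 5.72e-10). Bag3, a cochaperone, fell (-1.07 ± 0.21). The unfolded protein response was mixed: 13 of 22 genes rose (59.1%), 4 fell and 5 were not called. Hspa5, the ER chaperone BiP, went from 402, 452, 422 and 433 CPM to 1148, 1224 and 1176 CPM (log2 fold change 1.47 ± 0.05 (SE), adjusted p = 4.31e-12), while Xbp1, the factor of the plasma cell secretory programme, fell (-0.45 ± 0.13). Proteasome subunits rose in 29 of 38 cases (76.3%), mostly by less than 2-fold, with a median of 0.45. The immunoproteasome subunits Psmb8 (-0.87 ± 0.08), Psmb9 (-0.45 ± 0.15) and Psmb10 (-0.86 ± 0.10) fell, and the call of Psmb9 was lost without stimulated library 1 (adjusted p = 0.0842) or 2 (adjusted p = 0.0711).

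Metabolic genes rose in the pathways of nucleotides, sterols and amino acid uptake. Of 27 genes of nucleotide, serine and one-carbon metabolism, 25 rose (92.6%), 1 fell and 1 was not called, with a median of 1.15. Ctps, CTP synthase, went from 32.3, 39.2, 32.1 and 30.9 CPM to 196, 208 and 193 CPM (log2 fold change 2.56 ± 0.09 (SE), adjusted p = 3.04e-12), while its paralog Ctps2 fell from 125, 119, 112 and 117 CPM to 39.5, 35.3 and 39.1 CPM (log2 fold change -1.64 ± 0.07 (SE), adjusted p = 1.67e-11). Shmt1, serine hydroxymethyltransferase, rose 6.01-fold, Cad, the first enzyme of pyrimidine synthesis, 2.93-fold, and Ppat, the first committed enzyme of purine synthesis, 3.54-fold. Cholesterol genes rose in 18 of 22 cases (81.8%), with 2 lower and a median of 1.14. Sqle, squalene epoxidase, rose 3.47-fold, and Dhcr7, a late reductase of the pathway, was lower (-0.40 ± 0.10). Among 15 amino acid transporters 10 rose (66.7%) and 3 fell. Slc7a5 (1.39 ± 0.06) and Slc3a2 (1.42 ± 0.07), the chains of the large neutral amino acid exchanger, Slc1a5 (1.07 ± 0.06), a glutamine carrier, and Slc7a1 (1.68 ± 0.06), a carrier of cationic amino acids, rose. Slc43a2 fell from 164, 159.7, 157 and 157 CPM to 28.96, 29.9 and 29.4 CPM (log2 fold change -2.44 ± 0.08 (SE), adjusted p = 2.12e-12).

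Glycolysis genes did not move as 1 group. Of 21 genes, 8 rose (38.1%), 7 fell (33.3%) and 6 were not called, and the median of 0.03 changed sign under several alternatives. Hk2, the inducible hexokinase, went from 22.7, 29.7, 28.98 and 30.1 CPM to 143, 158 and 138 CPM (log2 fold change 2.39 ± 0.09 (SE), adjusted p = 4.99e-12) while Hk1 went from 99.6, 105, 89.3 and 96.5 CPM to 47.6, 48.5 and 48.5 CPM (log2 fold change -1.02 ± 0.14 (SE), adjusted p = 2.76e-05). Both hexokinases had no overlap between the states. Ldha (1.59 ± 0.08), Pgam1 (1.34 ± 0.07) and the lactate carrier Slc16a1 (2.10 ± 0.19) rose, and the glucose transporters Slc2a1 (-0.49 ± 0.11) and Slc2a3 (-0.49 ± 0.11) fell. Of 78 nuclear-encoded oxidative phosphorylation genes tested, 30 rose (38.5%), 15 fell and 33 were not called, with Cycs, cytochrome c, as the largest rise (1.26 ± 0.06), but with library totals as the scale 20 rose and 26 fell.

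**Figure D4:**
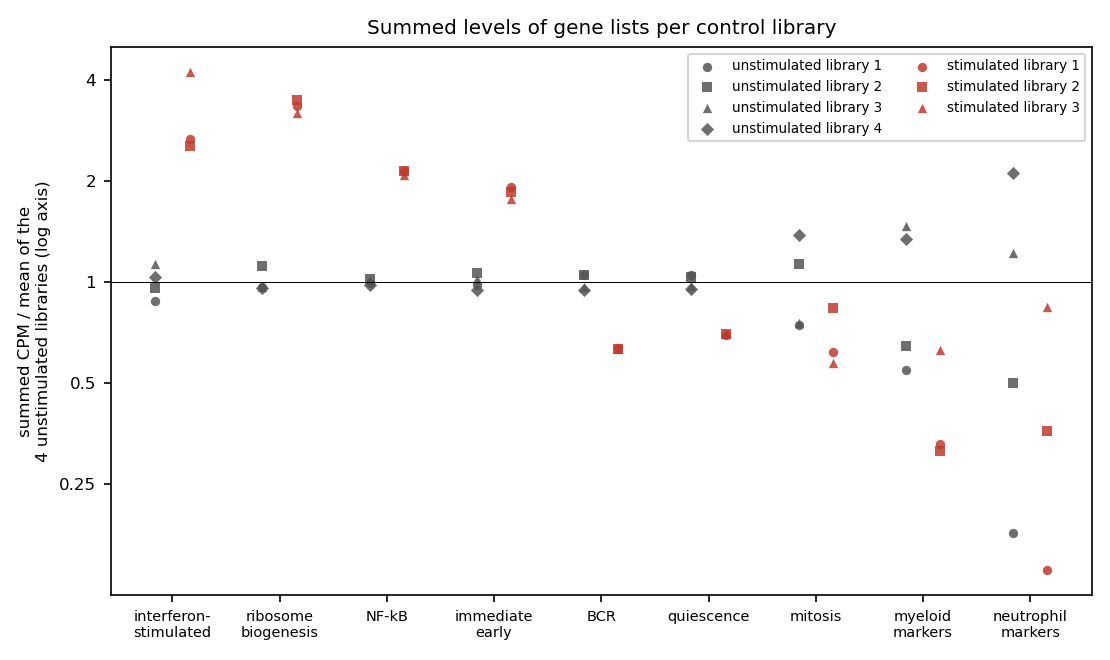
Summed CPM of 9 gene lists in each control library, divided by the mean of the 4 unstimulated libraries, on a log axis, with a marker shape for each library number. Stimulated library 3 is above the other 2 for interferon-stimulated genes and for myeloid and neutrophil markers, and the mitosis sums of the 2 states overlap.

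Cyclin D2 and its kinases rose, while few genes of DNA replication and none of mitosis did. Ccnd2, cyclin D2, went from 159, 250.4, 217 and 208 CPM to 1150, 1472 and 1378 CPM, 6.39-fold higher (log2 fold change 2.68 ± 0.14 (SE), adjusted p = 3.57e-09). Cdk6, one of its kinases, went from 18.3, 22.5, 19.98 and 20.6 CPM to 116, 117 and 112 CPM (log2 fold change 2.50 ± 0.10 (SE), adjusted p = 8.09e-12), and Cdk4, the other, rose 2.75-fold. Ccnd3, cyclin D3, went the other way, from 56.6, 50.7, 59.6 and 69.8 CPM to 18.8, 18.7 and 21.1 CPM (log2 fold change -1.60 ± 0.32 (SE), adjusted p = 0.00151). The inhibitor Cdkn1b, p27, went from 197, 186, 197 and 183 CPM to 53.2, 47.4 and 55.05 CPM (log2 fold change -1.88 ± 0.07 (SE), adjusted p = 4.99e-12), and the pocket protein Rbl2, p130, fell 3.45-fold. For these genes no stimulated library overlapped the unstimulated range. Over the whole G1 list, 8 of 26 tested rose, 9 fell and 9 were not called, so the shares were close to those of all genes. Of 30 DNA replication genes 5 rose, 6 fell and 19 were not called, with Pcna as the largest rise (0.74 ± 0.07), and with the library number as a block 9 rose and 13 fell. For these the balance turned with DESeq2's size factors or test (8 rose and 5 fell), while with library totals 2 rose and 8 fell. Of 24 mitosis genes none rose, 6 fell and 18 were not called. Their summed level was 677, 1032, 686 and 1253 CPM unstimulated and 563, 762 and 523 CPM stimulated, and the ranges of the 2 states overlapped. Within each numbered pair the stimulated library was the lower one, and with the library number as a block 20 of the 24 fell. Leaving out any 1 of 6 control libraries (all but unstimulated library 1) left 2 or 3 mitosis calls, and DESeq2's size factors or no filter on low counts left 3. Mki67, the proliferation marker, stood at 226, 427, 202 and 517 CPM unstimulated and 211, 332 and 170.3 CPM stimulated, not called without the block (adjusted p = 0.49) and lower with it (adjusted p = 0.00896).

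Quiescence genes fell as a group. Of 26 genes, mostly transcription factors and antiproliferative genes, 22 fell (84.6% against 31.8%), 2 rose and 2 were not called, with a median of -1.05. The 26 include Rasgrp2, the RAP1 activator among the largest falls above, which is of neither kind. Klf2, which keeps lymphocytes resting and drives egress receptors, went from 488, 520, 443 and 434 CPM to 98.9, 106 and 106 CPM, 4.56-fold lower (log2 fold change -2.19 ± 0.10 (SE), adjusted p = 5.51e-11). Foxo1, which is switched off by PI3 kinase signalling and keeps quiescence, went from 497, 484, 446 and 454 CPM to 183, 165 and 165 CPM (log2 fold change -1.46 ± 0.08 (SE), adjusted p = 2.21e-10). The stimulated libraries lay below the unstimulated ones in both. Btg2 (-1.62 ± 0.07), an antiproliferative cofactor of mRNA decay, Tsc22d3 (-1.73 ± 0.10), the glucocorticoid-induced leucine zipper, Txnip (-1.30 ± 0.06), a brake on glucose uptake, and Sesn1 (-1.63 ± 0.09), an inhibitor of mTORC1, fell. The 2 that rose were Tob2 (0.66 ± 0.10) and Slfn2 (0.37 ± 0.08).

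Survival genes changed by member. Of 7 anti-apoptotic BCL2 family genes, 4 rose and 3 fell. Bcl2l1, which encodes BCL-xL, went from 32.4, 44.05, 49.1 and 38.4 CPM to 319, 326 and 329 CPM, 7.92-fold higher (log2 fold change 2.99 ± 0.14 (SE), adjusted p = 2.77e-09), and Bcl2 went from 31.1, 27.6, 26.9 and 32.96 CPM to 16.3, 12.7 and 16.4 CPM, 1.96-fold lower (log2 fold change -0.97 ± 0.12 (SE), adjusted p = 1.97e-06). Neither gene had overlapping groups. The A1 genes Bcl2a1a, Bcl2a1b and Bcl2a1d rose 2.88-fold, 5.38-fold and 6.88-fold, but they are near-identical copies among which reads can be split. Mcl1 was lower (-0.36 ± 0.05). Among 8 death genes tested out of 11, Bcl2l11, the BH3-only protein BIM (0.85 ± 0.10), Bid (0.94 ± 0.06) and Bax (0.56 ± 0.08) rose, and Bmf (-1.97 ± 0.10), Bad (-1.52 ± 0.17) and Bbc3 (-0.67 ± 0.12), which encodes PUMA, fell.

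Chemokine and cytokine genes rose in 16 of 27 cases tested (59.3% against 28.5%), each by more than 2-fold, with 3 lower, 8 not called and a median of 1.70. Ccl4, an inflammatory chemokine, went from 10.4, 18.2, 14.2 and 13.8 CPM to 225, 254 and 201 CPM, 16.03-fold higher (log2 fold change 4.00 ± 0.32 (SE), adjusted p = 1.58e-06), and Ccl3, its neighbour, from 9.11, 15.7, 12.6 and 13.96 CPM to 127, 133 and 116 CPM, 9.75-fold higher (log2 fold change 3.29 ± 0.26 (SE), adjusted p = 9.70e-07). Stimulated and unstimulated libraries were far apart for both. Il6 went from 0.221, 0.451, 0.211 and 0.523 CPM to 2.76, 1.97 and 4.24 CPM (log2 fold change 3.06 ± 0.39 (SE), adjusted p = 4.52e-06), and Tnf from 5.64, 10.3, 10.1 and 9.52 CPM to 27.7, 34.7 and 47.8 CPM (log2 fold change 2.05 ± 0.24 (SE), adjusted p = 1.14e-05). Il6 and Tnf were highest in stimulated library 3, which held the most myeloid and neutrophil RNA of the stimulated libraries. The part of that RNA in their values was not tested. Vegfa rose 5.65-fold, Csf1 5.40-fold, and Il10, at 2.22 to 3.12 CPM unstimulated and 6.16 to 8.40 CPM stimulated, 2.73-fold. Ltb, lymphotoxin beta, which B cells use to organise follicles, fell from 310.3, 288, 288 and 272 CPM to 44.7, 41.5 and 55.02 CPM (log2 fold change -2.62 ± 0.09 (SE), adjusted p = 2.78e-12), and Il16 fell 4.12-fold.

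Activation and costimulation genes rose in 13 of 25 cases tested (52%), with 3 lower (6 with the library number as a block) and 9 not called. Cd69, which retains lymphocytes by binding S1PR1, went from 100.3, 106, 111 and 106 CPM to 600.2, 627 and 761 CPM, 6.27-fold higher (log2 fold change 2.65 ± 0.08 (SE), adjusted p = 2.12e-12). Il2ra, the alpha chain of the IL-2 receptor, went from 36.5, 43.2, 56.8 and 47.9 CPM to 443, 462 and 494 CPM (log2 fold change 3.34 ± 0.16 (SE), adjusted p = 2.82e-09), and Cd274, PD-L1, from 57.1, 65.1, 60.04 and 64.4 CPM to 324, 309.9 and 345 CPM (log2 fold change 2.40 ± 0.07 (SE), adjusted p = 2.12e-12). In all 3 the states did not overlap. Cd83 (1.82 ± 0.07), Slamf1 (1.48 ± 0.15) and Tnfrsf13c, the BAFF receptor (0.98 ± 0.07), rose. Cd86, a common flow cytometry marker of B cell activation, was at 368, 338, 343 and 304 CPM unstimulated and 462, 401 and 412 CPM stimulated and was not called (adjusted p = 0.0794), although the libraries did not overlap. With the library number as a block Cd86 was called higher (log2 fold change 0.28, adjusted p = 1.61e-05). Cd80 was not called either. Icosl, the ligand of the T cell costimulator ICOS, fell from 266, 230.4, 223 and 232 CPM to 34.9, 24.04 and 42.1 CPM (log2 fold change -2.82 ± 0.19 (SE), adjusted p = 1.65e-07), and Il10ra, an IL-10 receptor chain, fell 4.57-fold.

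Receptors for migration, egress and adhesion divided into rises and falls. Of 22, 8 rose (36.4%), 11 fell (50%) and 3 were not called. Ccr7 (0.80 ± 0.08), which guides B cells toward the T cell zone, Gpr183 (1.96 ± 0.13), the EBI2 receptor for oxysterols, and Cxcr5 (0.64 ± 0.07), the follicle homing receptor, rose, as did Cd44 (1.54 ± 0.07) and Icam1 (1.66 ± 0.07). Itgb7, an integrin of gut homing, went from 135, 119, 127 and 113 CPM to 15.96, 12.1 and 20.3 CPM, 7.66-fold lower (log2 fold change -2.94 ± 0.23 (SE), adjusted p = 7.00e-07). Its stimulated libraries all lay below the unstimulated ones. The sphingosine 1-phosphate receptors split: S1pr1, the egress receptor, fell from 412, 406, 393 and 385 CPM to 140.2, 133 and 145 CPM (log2 fold change -1.52 ± 0.12 (SE), adjusted p = 5.28e-08), S1pr4 fell 7.54-fold, and S1pr3, a receptor of marginal zone B cells, rose from 14.6, 25.9, 22.6 and 18.6 CPM to 149.9, 175 and 150 CPM (log2 fold change 2.95 ± 0.23 (SE), adjusted p = 6.84e-07). Of the other 5 marginal zone markers, Myof rose, Cd1d1, Cd9 and Plac8 fell, and Dtx1 was not called (adjusted p = 0.0105 for a fall with the block).

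B cell identity and antigen presentation genes were more often lower. Of 28 identity and fate factors, 17 fell (60.7%), 9 rose (32.1%) and 2 were not called. Irf4, which marks antigen-activated B cells and directs their fate, went from 448, 555, 494 and 492 CPM to 3059, 3189 and 2823 CPM, 6.08-fold higher (log2 fold change 2.60 ± 0.13 (SE), adjusted p = 1.12e-09), and Batf, an AP-1 partner of IRF4, from 8.74, 9.15, 9.50 and 9.58 CPM to 46.4, 54.6 and 49.7 CPM (log2 fold change 2.44 ± 0.08 (SE), adjusted p = 2.78e-12). Ets1, which restrains plasma cell formation, went from 1742, 1601, 1516 and 1509 CPM to 414, 345 and 403 CPM (log2 fold change -2.04 ± 0.10 (SE), adjusted p = 2.00e-10), and Id3, an inhibitor of E proteins, from 93.8, 96.4, 83.7 and 81.8 CPM to 18.3, 19.4 and 15.3 CPM (log2 fold change -2.33 ± 0.11 (SE), adjusted p = 3.33e-11). All 4 genes showed separate groups. Pax5, the B lineage factor, fell 2.19-fold and Pou2af1, a coactivator of octamer-binding factors, 2.91-fold, while Ebf1 rose 1.57-fold. Bcl6, the germinal centre repressor, was lower (-0.42 ± 0.08), and Prdm1, the plasma cell repressor Blimp-1, was higher (12.1 to 17.6 against 18.9 to 21.1 CPM), a call lost with library totals as the scale. All 15 class II genes were called, 11 lower (73.3%) and 4 higher. The antigen-presenting chains H2-Aa (0.52 ± 0.12), H2-Ab1 (0.41 ± 0.11) and H2-Eb1 (0.49 ± 0.13) rose, while the peptide-loading genes H2-DMa (-1.45 ± 0.10), H2-DMb2 (-1.31 ± 0.11) and H2-Oa (-1.10 ± 0.10), the thiol reductase Ifi30 (-1.68 ± 0.10), the transactivator Ciita (-0.79 ± 0.08) and the invariant chain Cd74 (-0.34 ± 0.09) fell.

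Interferon-stimulated genes rose strongly. Of 30, 26 rose (86.7% against 28.5%), 1 fell and 3 were not called, with a median log2 fold change of 2.10, above that of the other 34 lists of function except when stimulated library 3 was left out. Promoters of Cxcl10, Ifit1 and Ifit3 are printed because each holds the interferon-stimulated response element (GAAA, any 2 bases, GAAA, or its reverse complement), in capitals with, for Cxcl10, the NF-kB consensus as well. They are RefSeq windows on GRCm38.p6 at chr5:92348890-92349139 on the minus strand, chr19:34640639-34640888 on the plus strand and chr19:34583279-34583528 on the plus strand. In Cxcl10 the response element begins 213 bases before the start and the NF-kB matches 159, 104 and 103 bases before it, the last 2 overlapping. In Ifit1 the elements begin 104 and 85 bases before the start and in Ifit3 156 and 122.
Cxcl10: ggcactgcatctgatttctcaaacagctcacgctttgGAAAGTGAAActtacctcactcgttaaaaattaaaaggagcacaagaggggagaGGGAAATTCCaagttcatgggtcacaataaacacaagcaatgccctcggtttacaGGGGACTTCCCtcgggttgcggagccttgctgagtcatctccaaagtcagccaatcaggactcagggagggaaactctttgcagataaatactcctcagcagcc
Ifit1: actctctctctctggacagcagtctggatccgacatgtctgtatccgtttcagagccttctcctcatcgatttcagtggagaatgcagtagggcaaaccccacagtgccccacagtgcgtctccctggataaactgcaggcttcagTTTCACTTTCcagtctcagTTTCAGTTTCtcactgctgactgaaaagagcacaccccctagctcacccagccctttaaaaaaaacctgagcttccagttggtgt
Ifit3: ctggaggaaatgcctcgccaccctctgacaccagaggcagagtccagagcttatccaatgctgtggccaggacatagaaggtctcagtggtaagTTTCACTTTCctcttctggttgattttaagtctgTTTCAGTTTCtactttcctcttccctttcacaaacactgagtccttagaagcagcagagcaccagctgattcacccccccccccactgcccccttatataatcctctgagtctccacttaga
The element was found in 3.49% of the 27025 promoters in the table and in 3.24% of the 10662 genes tested that have a window. In the list 13 genes hold it, but only 22 of the 30 have a window, too small a part of the list for a share of it. Ifit1, an RNA-binding antiviral effector, went from 3.80, 5.58, 7.35 and 8.04 CPM to 71.7, 71.6 and 146 CPM, 15.5-fold higher (log2 fold change 3.95 ± 0.34 (SE), adjusted p = 2.24e-06), and Ifit3, its partner, from 8.55, 9.43, 13.3 and 10.6 CPM to 93.8, 98.7 and 199.9 CPM (log2 fold change 3.64 ± 0.31 (SE), adjusted p = 2.20e-06). Mx1, an antiviral GTPase, went from 7.37, 9.36, 14.3 and 9.61 CPM to 106, 114 and 212 CPM (log2 fold change 3.82 ± 0.32 (SE), adjusted p = 1.87e-06). All stimulated libraries were above all unstimulated ones in these genes, and stimulated library 3 was the highest in each. Isg15 (2.76 ± 0.30), Rsad2 (2.46 ± 0.44), Usp18 (3.10 ± 0.30) and Irf7 (1.75 ± 0.20) rose, and Gbp3 fell (-0.96 ± 0.18). The summed level went from 834, 914, 1075 and 983 CPM to 2523, 2409 and 4010 CPM. Without stimulated library 3, 25 genes rose and the median was 1.79. Library 3 also held the most myeloid and neutrophil RNA of the stimulated libraries, and the part of that RNA in these values was not tested.

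GIMAP GTPases fell, and Toll-like receptor genes moved in both directions. All 8 GIMAP GTPases, which support lymphocyte survival, fell (100% against 31.8%), from -0.38 ± 0.12 for Gimap4 to -2.41 ± 0.15 for Gimap7 on the log2 scale. The call of Gimap4 was lost without stimulated library 1 (adjusted p = 0.0535) or 2 (adjusted p = 0.0685). Of 20 Toll-like receptor and adaptor genes, 9 fell (45%), 4 rose and 7 were not called. Tlr7, the sensor of single-stranded RNA, went from 29.4, 40.9, 48.05 and 46.3 CPM to 228, 222 and 299 CPM, 6.06-fold higher (log2 fold change 2.60 ± 0.17 (SE), adjusted p = 1.10e-07), while Tlr4, the sensor of lipopolysaccharide, fell 2.92-fold and Tlr9, the sensor of CpG DNA, was not called (-0.03 ± 0.10). Unc93b1, which carries the endosomal receptors to their compartment, fell 2.16-fold. The summed level of the myeloid markers was lower in all 3 pairs as well, and its part in the Toll-like receptor values was not tested. A list of 18 genes was made for proteins that destabilize mRNA, but it also holds Arid5a, whose protein protects mRNAs. Of the 18, 10 rose (55.6%), 6 fell and 2 were not called, and with library totals as the scale 7 rose and 7 fell. Of the relatives of Regnase-1 in the list, Zc3h12c is described here, and Zc3h12b and Zc3h12d are not. Zc3h12c went from 22.6, 36.5, 36.9 and 33.1 CPM to 151, 176 and 140 CPM, 4.82-fold higher (log2 fold change 2.27 ± 0.19 (SE), adjusted p = 8.47e-07), against 1.23-fold for Zc3h12a. Zfp36l2 (-1.26 ± 0.08), which binds AU-rich elements, and Arid5a (-1.25 ± 0.10), which protects some Regnase-1 targets, fell.

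Gene structure is given as a description of the genes with the largest changes. Among called genes with at least 1 CPM in the higher group, the 200 largest rises (log2 fold change of 2.15 or more) had a median gene span of 16.7 kb and 7 exons, the 200 largest falls (-2.08 or less) 21.7 kb and 8.5 exons, and all genes tested 23.8 kb and 9 exons. The immediate early genes were shortest, with a median of 7.04 kb and 3.5 exons. The AU-rich nonamer (TTA, TTTA and TT run together), which marks short-lived mRNAs, lay in the 3′ untranslated region of 26 of 175 rises (14.9%), 9 of 191 falls (4.71%) and 1024 of 12505 genes tested (8.19%). The check of untranslated regions was chosen after the data had been seen.

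The response was also read in the deficient libraries. Their counts do not enter the control means, but they share the filter and the estimate of spread of the control test. With only the 7 control libraries, 8501 of 12945 genes tested were called in the control response. In the deficient libraries, 7856 genes were called between the states (57.9%). Of the 3050 control genes called with more than a 2-fold change, 2758 (90.4%) were called in the same direction in deficient cells, and 11 had the opposite sign. The difference of the 2 responses was called for 1 of 13574 genes (0.00737%) by edgeR and for 48 by DESeq2. In the edgeR test 510 genes had an unadjusted p under 0.05, fewer than chance alone would give at that threshold over 13574 genes. With the library number as a block 68 were called (0.501%). The called gene was Mapk3, which encodes the kinase ERK1. It went from 60.8, 61.00, 64.7 and 63.96 CPM to 23.98, 22.7 and 22.9 CPM in control cells and from 65.7, 64.4 and 74.8 CPM to 44.03, 42.5 and 44.05 CPM in deficient cells. The fall was -1.43 against -0.65 on the log2 scale, a difference of -0.78 ± 0.09 (SE), adjusted p = 0.00443. The stimulated control libraries all lay below the stimulated deficient ones, while the unstimulated ranges overlapped.

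**Figure D5:**
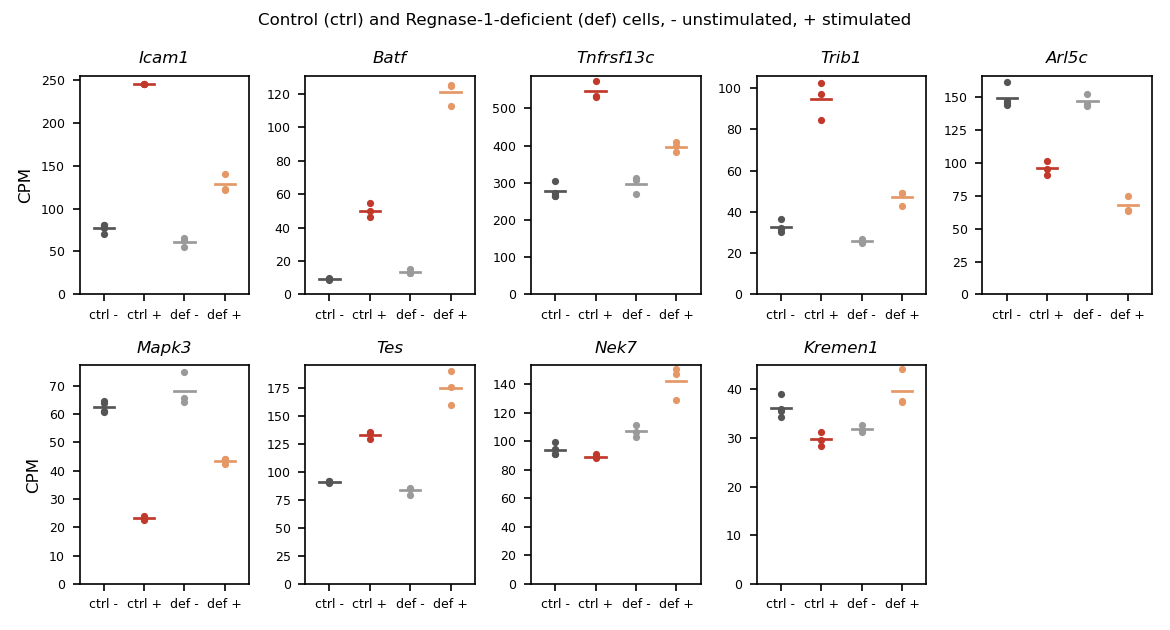
CPM per library in the 4 groups for 9 of the 10 genes with the smallest p of either sign for a difference between the responses, with lines at group means and axes from 0. Of these 9 only Mapk3 passed the adjusted threshold without the block.

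The other 8 genes shown did not pass that test, and their values are given side by side. Icam1, an adhesion ligand of LFA-1, went from 70.3, 81.00, 81.2 and 77.2 CPM to 245, 245 and 245 CPM in control cells and from 55.4, 65.9 and 63.1 CPM to 123, 140.4 and 122 CPM in deficient cells, with a difference of 0.60 ± 0.10 (SE), adjusted p = 0.0788 (adjusted p = 0.00114 with the block). Tnfrsf13c had log2 fold changes of 0.98 and 0.42 (adjusted p = 6.56e-04 with the block). Batf had 2.44 in control and 3.18 in deficient cells, a difference of -0.74 ± 0.11 (SE), adjusted p = 0.0608 (adjusted p = 0.00285 with the block). Trib1, a pseudokinase, had 1.54 and 0.87, Tes 0.55 and 1.07, Arl5c -0.64 and -1.12, Nek7 -0.07 and 0.41, and Kremen1 -0.29 and 0.32. In Nek7 and Kremen1 the 2 responses had opposite signs. Cr2 (0.00318), Gpr183 (0.00317) and Fcgr2b (0.00554) had an adjusted p below the threshold with the block but not without it, and were picked after the values had been seen.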

How the data were processed

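RNA from 13 samples of splenic B cells was sequenced on an Illumina instrument, and 7 control libraries are the subject here. The authors deposited whole-number read counts per gene symbol, 1 table per library. Per the submitters' processing notes these involved TopHat, HTSeq and mm10, with no version, strand setting or annotation named. The authors also deposited log2 values, linked to DESeq2 by the notes (how they were transformed is not stated), and these served only the limma alternative.

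Counts were used as deposited, without 1 of 23337 symbols that had a missing cell. Of 18872 symbols with a read, 13574 passed edgeR's filter by group (minimum count 10). The quasi-likelihood test (edgeR 4.0.16, R 4.3.3, robust, TMM) was fitted over all 13 libraries with 1 mean per group, which leaves 9 residual degrees of freedom. Errors of fold changes are standard errors from that fit, and adjusted p-values are Benjamini-Hochberg values over all genes tested, from edgeR unless another tool is named. Fold changes of genes with few reads depend on edgeR's prior count. A difference between 2 states is relative to the rest of the RNA. Samples with the same number deviated together (correlations of deviations from group means over 8781 genes for the control pairs were 0.825, 0.475 and 0.583, for the deficient pairs 0.866, 0.793 and 0.654), so the numbers pair the libraries, and a fit with the number as a block was an alternative. No 2 replicates agreed within sampling noise. On simulated data with 13292 genes the edgeR test recovered 46.27%, 75% and 85.25% of the 67, 64 and 61 genes changed by 1.5-, 2- and 4-fold. Far fewer genes were changed there than were called in the control response, so these rates do not describe that comparison.

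Alternatives were other scalings (DESeq2 size factors, upper quartile, library totals), DESeq2 1.42.0, limma 3.58.1 on the deposited log2 values, no filter, a filter of 1 CPM in 3 libraries, only the 7 control libraries, a minimum fold of 1.5 and each library left out in turn. Of 1071 members of 46 gene lists 1067 matched a symbol and 1040 were tested. Members and lists were chosen with earlier results of these data known. Genes were named by rule: Zc3h12a, the 12 largest rises and falls without overlap between groups and with at least 10 CPM in the higher group, the 6 largest rises and falls in CPM, up to 4 called members per direction of each list with at least 1 CPM (every member of lists of up to 11), and the 5 smallest p of each sign for the difference of responses, leaving out predicted genes and the segments of immunoglobulin or T cell receptor genes. Some genes that the rule names are not reported here. All other named genes were chosen after their values were seen. Gene positions and structures came from GENCODE vM21 (GRCm38), which matched 97.8% of the symbols, and promoter windows from RefSeq. Motifs were searched on both strands as exact letters. The check of gene structure and of untranslated regions describes the sets and has no test.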

Additional observations from a re-analysis of the deposited data

Results flagged for a closer look

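The difference between the control and deficient responses passed the test for 1 gene, Mapk3, with -0.78 on the log2 scale (control minus deficient).

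In 27 of 292 genes and list sums named here (9.25%), 1 of the 4 unstimulated control libraries lay apart from the other 3 by more than Dixon's 95% critical value, where chance gives about 1 in 20. Unstimulated library 2 was the highest for several growth groups by summed CPM. It held 7387 CPM of ribosome biogenesis factors against 6345 to 6411 in the others, 8269 of chaperones against 7366 to 7402, 2931 of nucleotide and one-carbon genes against 2577 to 2629, and 1285 of the MYC network against 1207 to 1212. It was also highest for anti-apoptotic BCL2 genes (974.5 CPM), Toll-like receptors and adaptors (1766 CPM) and marginal zone markers (845.5 CPM). Among single genes it was highest for Hsp90ab1 (2336 CPM), Blk (369.5 CPM), Fbl (188.8 CPM), Gnl3 (81.5 CPM), Rrp1b (52.3 CPM), Ctps (39.2 CPM) and Maff (14.8 CPM). In every one of the growth groups and genes given here the 3 stimulated libraries were still above library 2. Unstimulated library 1 was the highest for Bcl2l11 (459.4 CPM), Il16 (426.2 CPM), S1pr4 (209.3 CPM), Cyld (172.2 CPM) and Arl5c (161.8 CPM), and the lowest for Odc1 (459.0 CPM), Bbc3 (24.9 CPM), Hk2 (22.7 CPM), Bcl2a1b (13.8 CPM) and Tnf (5.64 CPM). Unstimulated library 3 was the highest for Irf7 (67.6 CPM) and was the only one of the 4 with reads of Ifnb1 (0.1407 CPM), and library 4 was the lowest for Psmb10 (46.6 CPM).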

How the results depend on the processing

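The number of genes called in the control response lay between 7513 and 7976 when 1 control library was left out, that of rises over 2-fold between 1308 and 1392 and that of falls over 2-fold between 1533 and 1750. A minimum fold of 1.5 left 3769 calls, and limma on the deposited log2 values gave 824 falls over 2-fold. With upper-quartile factors 42.47% of the calls were higher, with library totals 37.34% and with DESeq2's size factors 52.09%. With the replicate block 8855 genes were called, and of the named genes it ended no call and changed none beyond those given beside the results. The count for the difference of responses was 12 with upper-quartile factors, 17 with library totals, 48 with DESeq2, 10 with no filter on low counts, 68 with the replicate block and 0 with a minimum fold of 1.5, and lay between 1 and 10 when 1 library was left out (2 without control stimulated library 2, 10, 4, 4 and 3 without deficient stimulated libraries 1 and 2 and unstimulated libraries 1 and 3). Of 560 recomputed medians of 35 lists 378 moved by less than the spread between pairs, 169 moved by more and 13 changed sign. For the MYC network the median became 0.042 with 1 CPM in 3 libraries as filter, 0.095 with only the control libraries and 0.122 with limma. For glycolysis it became -0.035 with upper-quartile factors, -0.113 with library totals, -0.007 with the replicate block, and lay between -0.013 and 0.099 with single libraries left out (below 0 without stimulated library 2 or unstimulated library 4, at -0.013 and -0.006). For G1 genes it became 0.027 with the block and lay between -0.305 and 0.019 with single libraries left out (above 0 without unstimulated library 4), for ribosomal proteins -0.018 with upper-quartile factors and -0.095 with library totals, and for oxidative phosphorylation -0.046 with library totals. The cause was not tested. Of 4178 recomputed values of 246 named genes, 4076 kept their direction and side of the threshold, 52 were no longer called (mostly with a minimum fold of 1.5), 30 became called and 20 changed sign. The sign changes were in genes that were not called: Cd81 at 0.02 (DESeq2's factors and test, limma), Jun at -0.07 (library totals), Malt1 at -0.01 (library totals), Junb at -0.06 (upper quartile), -0.14 (totals), 0 (1 CPM filter) and -0.03 (block), and Tlr9 at 0.04 (DESeq2's factors and test, limma) and 0.01 (control libraries only). With single libraries left out Cd81 lay between -0.1 and 0.02, Jun between -0.04 and 0.18, Junb between -0.03 and 0.05 and Tlr9 between -0.11 and 0.04. Depth limits low genes: 3 reads are 0.0908 to 0.111 CPM in the control libraries.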

Other observations

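Interferon genes themselves were few in reads. Ifnb1, interferon beta, had 0, 0, 4 and 0 reads in the unstimulated control libraries and 13, 9 and 24 in the stimulated ones. Over the groups that is 4 and 46 reads, a ratio of 14.1 per library total with an exact 95% interval of 5.14 to 53.8, which covers counting error only. In the edgeR test Ifnb1 had an adjusted p of 0.00275. Ifng, interferon gamma, had 26, 13, 20 and 34 reads unstimulated and 32, 30 and 63 stimulated and was not called (log2 fold change 0.89 ± 0.39 (SE), adjusted p = 0.0595), but was with the library number as a block (adjusted p = 0.0301). In both genes stimulated library 3 had the most reads, as it had the highest summed level of interferon-stimulated genes and the most myeloid and neutrophil RNA of the stimulated libraries. The part of other cells in these reads was not tested.

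Some genes often used to mark other cells were called with stimulation, and these were picked after the values had been seen. Pecam1, an endothelial and leukocyte adhesion molecule, went from 219.7, 212, 212 and 202 CPM to 32.3, 30.4 and 43.6 CPM, 5.98-fold lower (log2 fold change -2.58 ± 0.12 (SE), adjusted p = 3.59e-10), while the other 5 stromal and endothelial genes tested were not called. Lck, a SRC family kinase best known from T cells, went from 20.6, 26.1, 28.8 and 28.1 CPM to 53.5, 59.7 and 64.4 CPM (log2 fold change 1.19 ± 0.10 (SE), adjusted p = 4.57e-08), while the other 9 T cell markers were not called. Cd5, a marker of T and B-1 cells, went from 1.84, 1.87, 5.35 and 5.36 CPM to 11.3, 13.8 and 11.8 CPM (log2 fold change 1.77 ± 0.35 (SE), adjusted p = 7.55e-04), and Zbtb46, a dendritic cell transcription factor, from 12.6, 11.4, 13.2 and 12.9 CPM to 50.6, 42.4 and 38.1 CPM (log2 fold change 1.80 ± 0.13 (SE), adjusted p = 8.75e-09). In all 4 genes the groups did not overlap.

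Several pairs of related genes moved in opposite directions, also picked after the values had been seen. On the log2 scale Hk2 was at 2.39 and Hk1 at -1.02, Ctps at 2.56 and Ctps2 at -1.64, Nfatc1 at 1.32 and Nfatc2 at -1.43, and Orai1 at 1.45 and Orai2 at -1.22. Bcl2l1 was at 2.99 and Bcl2 at -0.97, Ccnd2 at 2.68 and Ccnd3 at -1.60, and S1pr3 at 2.95 and S1pr4 at -2.91. Each of these genes was called, and each kept its direction under every alternative setting that was run.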
